A study of Mus musculus with 10 samples.

Results

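The core circadian clock was followed through 10 genes, Arntl, Clock, Npas2, Per1, Per2, Per3, Cry1, Cry2, Nr1d1 and Nr1d2, picked by their symbols. All 10 were found among the 23056 gene symbols of the count table and all 10 passed the filter on low counts. Bulk RNA was measured in 4 liver libraries labelled as Ifrd1 knockout (KO) and 6 labelled as wild type (WT), all taken 12 hours after partial hepatectomy, in which the median and left lateral lobes were cut away. All mice lived under a 12-hour light/dark cycle with free access to food. The labels do not give strain, age, sex, the altered allele, the cells in which Ifrd1 was knocked out, or the clock hour of surgery and of tissue collection. No unoperated liver was analysed here, and 1 time point gives neither the phase nor the amplitude of a rhythm. The study set out to learn what Ifrd1, a transcriptional co-regulator, does in the regenerating liver.

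The mammalian clock is a feedback loop of transcription. BMAL1, the product of Arntl, pairs with CLOCK or its relative NPAS2 and activates genes through E-boxes, among them the Per and Cry genes, whose proteins return to inhibit the pair. A second loop runs through REV-ERB alpha and beta (Nr1d1 and Nr1d2), nuclear receptors that bind ROR elements and repress Arntl, Npas2 and Clock. In liver this loop sets daily rhythms of bile acid, sugar and lipid metabolism.

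The promoters that carry a clock-related motif are printed to show which members hold such an element and where. Of the 10 genes, 9 matched an entry in the RefSeq promoter table (build GRCm38.p6), with 13 start sites in all, and the 250 bases before each start were searched on both strands. Per2 had no entry. The bases after the start were not found in a GENCODE M21 transcript for Cry2, Nr1d1 and 1 of the 2 Per1 starts. Distances to those starts rest on the RefSeq entry alone. The motifs were the E-box CACGTG, its variant CACGTT, the D-boxes TTATGTAA and TTACGTAA, the ROR elements TAGGTCA and TGGGTCA, and the cAMP response element TGACGTCA. None of these overlapped another in the windows shown, which lie for Per1 at chr11:69098699-69098948 (plus strand), Cry1 at chr10:85185055-85185304 (minus strand), Per3 at chr4:151044666-151044915 (minus strand), Cry2 at chr2:92434070-92434319 (minus strand) and Nr1d1 at chr11:98775378-98775627 (minus strand). Capitals mark a motif match, and AACGTG is CACGTT read on the other strand.
Per1: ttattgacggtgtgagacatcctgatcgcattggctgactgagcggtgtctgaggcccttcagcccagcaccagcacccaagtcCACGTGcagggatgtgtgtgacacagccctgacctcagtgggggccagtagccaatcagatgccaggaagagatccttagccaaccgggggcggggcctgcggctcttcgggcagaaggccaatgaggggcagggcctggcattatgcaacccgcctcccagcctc
Cry1: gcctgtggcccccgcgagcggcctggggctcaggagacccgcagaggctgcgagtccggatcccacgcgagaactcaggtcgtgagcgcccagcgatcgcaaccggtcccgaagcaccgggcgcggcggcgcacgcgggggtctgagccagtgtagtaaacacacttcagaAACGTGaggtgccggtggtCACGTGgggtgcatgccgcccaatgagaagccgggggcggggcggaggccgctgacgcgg
Per3: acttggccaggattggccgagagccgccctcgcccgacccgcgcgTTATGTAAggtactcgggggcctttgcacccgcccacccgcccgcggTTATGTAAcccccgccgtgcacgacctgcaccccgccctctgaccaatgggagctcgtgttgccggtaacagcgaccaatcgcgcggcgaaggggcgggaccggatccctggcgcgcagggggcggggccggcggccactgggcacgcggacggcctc
Cry2: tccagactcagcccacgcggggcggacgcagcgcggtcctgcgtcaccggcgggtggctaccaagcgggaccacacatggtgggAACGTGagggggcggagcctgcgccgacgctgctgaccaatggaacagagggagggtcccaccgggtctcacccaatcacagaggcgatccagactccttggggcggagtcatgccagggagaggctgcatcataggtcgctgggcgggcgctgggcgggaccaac
Nr1d1: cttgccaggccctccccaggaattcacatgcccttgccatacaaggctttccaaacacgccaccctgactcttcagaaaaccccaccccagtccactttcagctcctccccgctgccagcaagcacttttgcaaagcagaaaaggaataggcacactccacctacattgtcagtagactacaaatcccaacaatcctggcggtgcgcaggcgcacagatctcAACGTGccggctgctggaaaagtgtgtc

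The E-box was found in Per1, 166 to 161 bases before the first of its 2 start sites, and in Cry1, 60 to 55 bases before the start. The window of the other Per1 start held 0 matches. The variant stood in Cry1, Cry2 and Nr1d1. Per3 held the D-box TTATGTAA at 2 places, 205 to 198 and 158 to 151 bases before the start. Across 32851 promoter windows of the same length, 6.02% held the E-box, 3.85% its variant and 0.931% a D-box. The ROR element (5.38% of all windows) and the cAMP response element (1.55%) were matched in 0 of the 13 windows. At shares this low, 0 of 13 does not set the members apart from other genes. A site past the start, further before it or with other letters was not searched for. The search thus does not show that Arntl, Clock or Npas2 lacks a ROR element. Each match is a match of letters in a short window and was not tested for binding.

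The libraries held between 12675838 and 17098012 counts in KO and between 12307446 and 14340623 in WT. Ifrd1 checked the labels, at 19.5 ± 4.38 CPM in KO (SD, n = 4) and 58.7 ± 15.6 CPM in WT (SD, n = 6), without overlap. Its log2 fold change was -1.59 and its adjusted p 0.0258 in edgeR's quasi-likelihood F test, where p-values were adjusted over all tested genes by the Benjamini-Hochberg method, and it passed in 13 of 22 alternative fits. CPM is the count of a gene per 1e6 counts of its library, scaled by the trimmed mean of M-values (TMM). On the principal components of all tested genes, WT replicates 5 and 6 lay at 44.0 and 47.1 on the second component, against -39.5 to 0.412 in the other 8 libraries. On the first, WT replicate 4 lay at -40.1, beside the KO libraries at -46.8 to -42.2, while the other WT libraries lay at 11.8 to 79.3. Log2 fold changes of the clock genes are therefore also given without WT replicate 4 and without WT replicates 5 and 6, in the text or in the plot of fold changes. Each of 5 hepatocyte markers was present, with a summed level of 48478 to 57938 CPM in KO and 36774 to 79318 CPM in WT. Of 40 markers in 8 cell type lists, 30 were tested and 0 were called in edgeR at an adjusted p under 0.05. At an unadjusted p under 0.05 there were 7. DESeq2 called 4: Clec4g higher in KO, and Clec4f, Lyve1 and S100a8 lower. Over all genes, 1.33% were called in edgeR, 26.0% had an unadjusted p under 0.05 in edgeR and 10.3% were called in DESeq2. Summed markers of Kupffer cells and macrophages (5 of 5 tested) ran from 16.5 to 38.4 CPM in KO and from 19.6 to 158.3 CPM in WT. The highest value was that of WT replicate 2, and the next was 65.1 CPM in WT replicate 6. The two-sided exact permutation p of this sum was 0.152, the lowest among the 8 lists (Benjamini-Hochberg adjusted p = 0.917 among 11 library measures). The part that cell composition has in the clock gene values was not tested, and in bulk liver fewer cells of a type and less RNA per cell cannot be told apart.

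KO livers had no core clock gene past the test. By edgeR, 0 of 10 members were called at an adjusted p under 0.05, against 1.33% of all 13688 genes tested. At an unadjusted p under 0.05 there were 3 of 10 (Per1, Clock and Nr1d2), against 26.0% of all genes. Per1 was the 1 member of 10 whose KO and WT libraries did not overlap, against 6.90% of all genes tested. The log2 fold change of KO over WT was above 0 for the 3 activators Arntl, Clock and Npas2 and below 0 for the 7 genes of the inhibiting arms. Of all 13688 genes, 7060 were below 0. The values of Per3, Cry1 and Nr1d1 were smaller than their SE. In 22 alternative fits the sign turned in 6 for Per3 and 5 for Nr1d1, and in 1 each for Clock, Per2, Cry1 and Nr1d2. The median over the 10 was -0.21, and that over all tested genes was -0.02. None of these shares sets the members apart from the background. DESeq2 called 1 of 10 members (Per1, lower in KO), where it called 10.3% of all genes. Limma-voom called 0 of 10, where it called 2.32% of all genes, and 3 of 10 with sample weights (Clock and Npas2 higher, Per1 lower), where it called 19.2%.

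**Figure D1:**
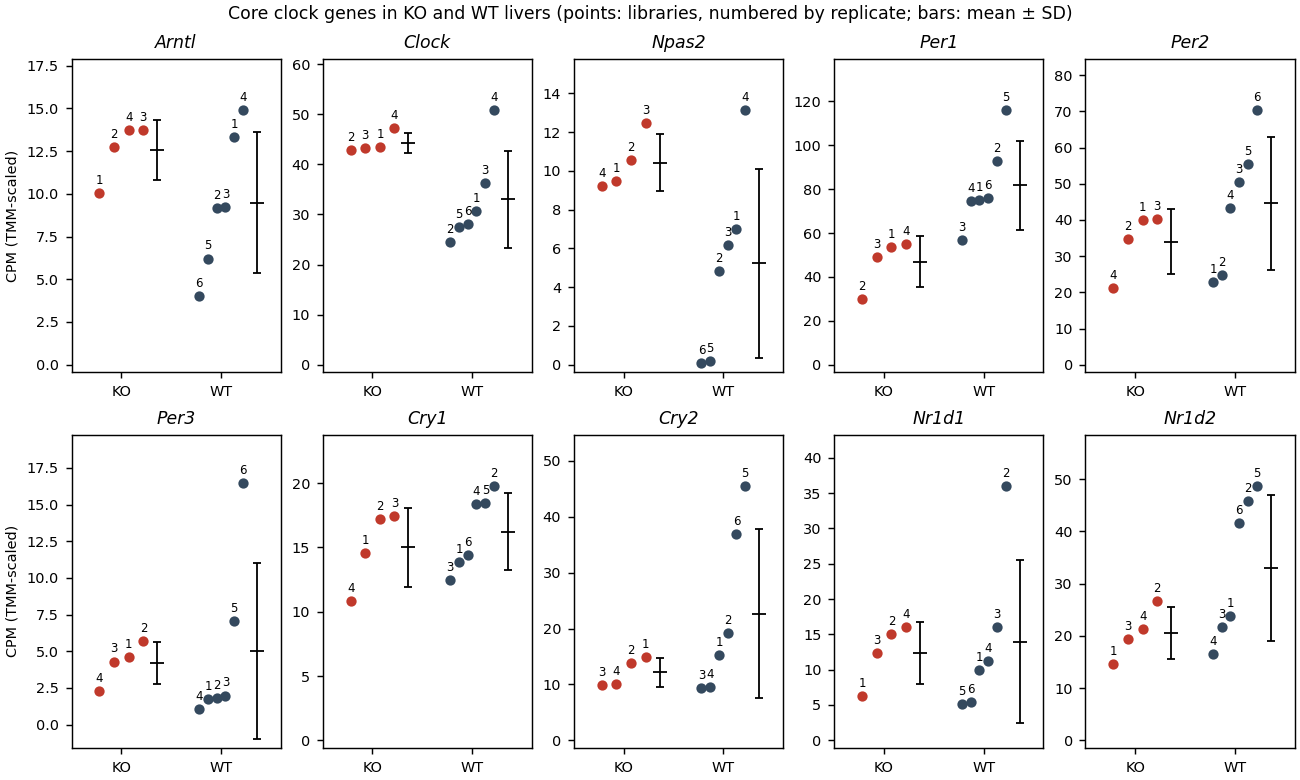
Level of each core clock gene in CPM (linear axes, TMM-scaled), with 4 KO libraries left of 6 WT libraries. Points are libraries numbered by replicate and bars are mean ± SD. Per1 is the gene without overlap, and WT replicates 5 and 6 stand near 0 for Npas2.

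Arntl encodes BMAL1, the partner shared by both activator pairs (chromosome 7, 113207465 to 113314126, plus strand, GENCODE M21 on GRCm38). KO replicates 1 to 4 had 10.04, 12.7, 13.8 and 13.7 CPM, and WT replicates 1 to 6 had 13.4, 9.15, 9.25, 14.9, 6.21 and 4.02 CPM. WT replicates 2, 3, 5 and 6 lay below every KO library, replicates 5 and 6 lowest, and WT replicate 4 was the highest of all. The log2 fold change was 0.40 (SE 0.30, edgeR adjusted p = 0.421). Without WT replicates 5 and 6 it was 0.10 (SE 0.21, edgeR adjusted p = 0.786), and without WT replicate 4 it was 0.58 (SE 0.29, edgeR adjusted p = 0.170).

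Clock encodes the histone acetyltransferase partner of BMAL1 (chromosome 5, 76209868 to 76304792, minus strand). Its level was 43.5, 42.8, 43.2 and 47.2 CPM in KO replicates 1 to 4, and 30.7, 24.5, 36.3, 50.8, 27.4 and 28.1 CPM in WT replicates 1 to 6. Every WT library but replicate 4 lay under the lowest KO library. The KO libraries were close together: the SD of log2 CPM was 0.06 in KO, where 3.16% of all tested genes had a smaller one, and 0.38 in WT. KO over WT gave a log2 fold change of 0.42 (SE 0.19, edgeR adjusted p = 0.185). Without WT replicate 4 it was 0.59 (SE 0.14) and Clock passed as higher in KO (edgeR adjusted p = 0.0120), in a fit that called 21.4% of all genes. Without WT replicates 5 and 6 it was 0.31 (SE 0.20) and did not pass (edgeR adjusted p = 0.371).

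Npas2, whose product can stand in for CLOCK, was the member that varied most among WT libraries (chromosome 1, 39193731 to 39363236, plus strand). KO replicates 1 to 4 held 9.49, 10.6, 12.4 and 9.20 CPM, and WT replicates 1 to 4 held 7.01, 4.84, 6.19 and 13.1 CPM. In WT replicates 5 and 6 it was almost absent, at 0.173 and 0.0773 CPM. These rest on 2 counts (exact Poisson 95% interval 0.242 to 7.22) and 1 count (0.0253 to 5.57), where the other 8 libraries had 64 to 193 counts. Such intervals cover counting error only. The SD of log2 CPM among WT libraries was 2.54, larger than in 99.8% of tested genes, against 0.19 among KO libraries. Npas2 had a log2 fold change of 0.98 (SE 0.80, edgeR adjusted p = 0.461), and 0.42 (SE 0.29, edgeR adjusted p = 0.398) without WT replicates 5 and 6. It was 1.49 (SE 0.81, edgeR adjusted p = 0.217) without WT replicate 4.

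**Figure D2:**
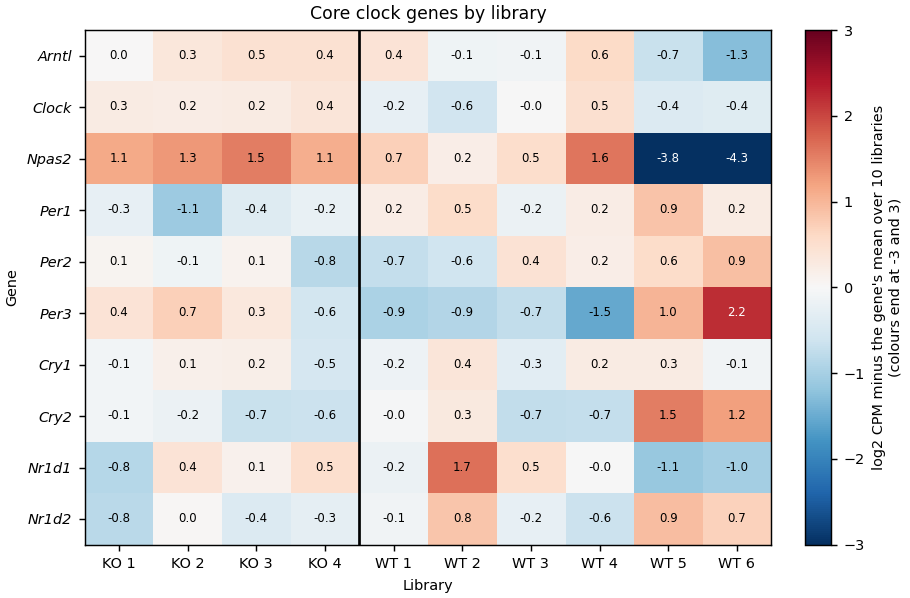
Log2 CPM of each core clock gene minus its mean over the 10 libraries, with KO replicates 1 to 4 left of WT replicates 1 to 6 and printed values to 1 decimal (colours end at -3 and 3). WT replicates 5 and 6 are low in Arntl, Npas2 and Nr1d1 and high in Per2, Per3 and Cry2.

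Among the inhibitors of the first loop, Per1 came nearest to the threshold. It encodes a PERIOD protein and also answers quickly to hormones and cAMP (chromosome 11, 69095217 to 69109960, plus strand). KO replicates 1 to 4 had 53.6, 30.0, 49.1 and 55.0 CPM, against 75.0, 93.0, 56.9, 74.7, 116.1 and 75.8 CPM in WT replicates 1 to 6. The highest KO library lay just under the lowest WT library, and WT replicate 4 was on the WT side. KO over WT gave -0.80 on the log2 scale (SE 0.22, edgeR adjusted p = 0.0689), and the mean was 46.9 ± 11.6 CPM in KO and 81.9 ± 20.3 CPM in WT (SD, n = 4 and n = 6). Per1 passed in DESeq2 (adjusted p = 0.0144), which called 10.3% of all genes. In edgeR it passed without WT replicate 4 (adjusted p = 0.0244), in a fit that called 21.4% of all genes. There the log2 fold change was -0.83 (SE 0.23). The unadjusted edgeR p was 0.00353, against 0.00325 with all libraries, so the pass came with the adjustment over all genes. Per1 did not pass without WT replicates 5 and 6 (log2 fold change -0.68, edgeR adjusted p = 0.141).

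Per2, the second PERIOD gene (chromosome 1, 91415982 to 91459324, minus strand), had 40.0, 34.6, 40.3 and 21.2 CPM in KO replicates 1 to 4. WT replicates 1 to 6 had 22.9, 24.8, 50.5, 43.3, 55.3 and 70.4 CPM. WT replicates 1 and 2 lay within the KO range and the other WT libraries above it, with replicates 5 and 6 the highest of all 10. The log2 fold change of -0.39 (SE 0.31) did not pass (edgeR adjusted p = 0.449) and was -0.061 without WT replicates 5 and 6 and -0.39 without WT replicate 4.

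Per3, a PERIOD gene that is dispensable for rhythm in mice, was the least abundant member per kilobase of exon (chromosome 4, 151003652 to 151044665, minus strand). KO replicates 1 to 4 held 4.58, 5.70, 4.30 and 2.30 CPM. WT replicates 1 to 4 held 1.72, 1.81, 1.99 and 1.09 CPM, and WT replicates 5 and 6 held 7.08 and 16.5 CPM. All 4 KO libraries thus lay above WT replicates 1 to 4 and below WT replicates 5 and 6. Counts behind these values ran from 16 in WT replicate 4 to 213 in WT replicate 6. Over all libraries the log2 fold change was -0.25 (SE 0.71, edgeR adjusted p = 0.857). Without WT replicates 5 and 6 its sign turned, to 1.34 (SE 0.34, edgeR adjusted p = 0.119), so the direction of Per3 depends on those libraries. Leaving out WT replicate 4 alone gave -0.45 (SE 0.67, edgeR adjusted p = 0.673).

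The cryptochrome genes encode the main repressors of the BMAL1 pairs. Cry1 (chromosome 10, 85131700 to 85185064, minus strand) had 14.6, 17.2, 17.4 and 10.8 CPM in KO replicates 1 to 4, and 13.9, 19.8, 12.5, 18.4, 18.5 and 14.4 CPM in WT replicates 1 to 6. Both groups covered about the same range, and its WT spread was the smallest of the 10 members (SD of log2 CPM 0.27). Its log2 fold change was -0.11 (SE 0.19, edgeR adjusted p = 0.736), and it was -0.11 without WT replicates 5 and 6 and -0.075 without WT replicate 4. Cry2 (chromosome 2, 92403646 to 92434043, minus strand) had 14.9, 13.8, 9.84 and 10.1 CPM in KO replicates 1 to 4, against 15.3, 19.3, 9.33, 9.60, 45.6 and 37.0 CPM in WT replicates 1 to 6. WT replicates 5 and 6 stood far above all others, and WT replicates 3 and 4 lay below the KO range. Cry2 had a log2 fold change of -0.90 (SE 0.44, edgeR adjusted p = 0.225), and -0.15 (SE 0.27, edgeR adjusted p = 0.760) without WT replicates 5 and 6. Leaving out WT replicate 4 gave -1.05 (SE 0.41, edgeR adjusted p = 0.0907). Exons of Cry2 share 295 bases (4.67% of its exonic bases) with D930015M05Rik on the opposite strand, and the strand setting of the counting is not given in the sources used here.

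The REV-ERB genes form the second loop. Nr1d1 (chromosome 11, 98767932 to 98775333, minus strand) had 6.23, 15.02, 12.4 and 15.98 CPM in KO replicates 1 to 4, and 9.91, 36.1, 16.1, 11.3, 5.09 and 5.49 CPM in WT replicates 1 to 6. WT replicate 2 was high and WT replicates 5 and 6 were the lowest of the 10 libraries. The log2 fold change was -0.18 (SE 0.51, edgeR adjusted p = 0.858), and 0.37 without WT replicate 2. It was -0.57 (SE 0.43, edgeR adjusted p = 0.440) without WT replicates 5 and 6, and -0.23 (SE 0.56, edgeR adjusted p = 0.807) without WT replicate 4. Exons of Nr1d1 share 263 bases (8.55%) with Thra, a thyroid hormone receptor gene on the opposite strand, so reads there cannot be told apart without a strand setting. Thra itself was at 10.99 ± 1.63 CPM in KO and 5.60 ± 3.28 CPM in WT (SD, n = 4 and n = 6) and did not pass (edgeR adjusted p = 0.133).

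Nr1d2, the REV-ERB beta gene (chromosome 14, 18204054 to 18239127, minus strand), had 14.6, 26.6, 19.4 and 21.4 CPM in KO replicates 1 to 4, against 23.8, 45.7, 21.7, 16.5, 48.8 and 41.5 CPM in WT replicates 1 to 6. WT replicates 2, 5 and 6 were high, and WT replicates 1, 3 and 4 lay within the KO range. For Nr1d2 the log2 fold change was -0.69 (SE 0.31, edgeR adjusted p = 0.185). Nr1d2 passed as lower in KO without WT replicate 4 (log2 fold change -0.82, edgeR adjusted p = 0.0448), in a fit that called 21.4% of all genes. The log2 fold change was -0.40 (edgeR adjusted p = 0.443) without WT replicates 5 and 6. In WT replicates 5 and 6, Nr1d1 was thus at its lowest while Nr1d2 was near its highest.

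**Figure D3:**
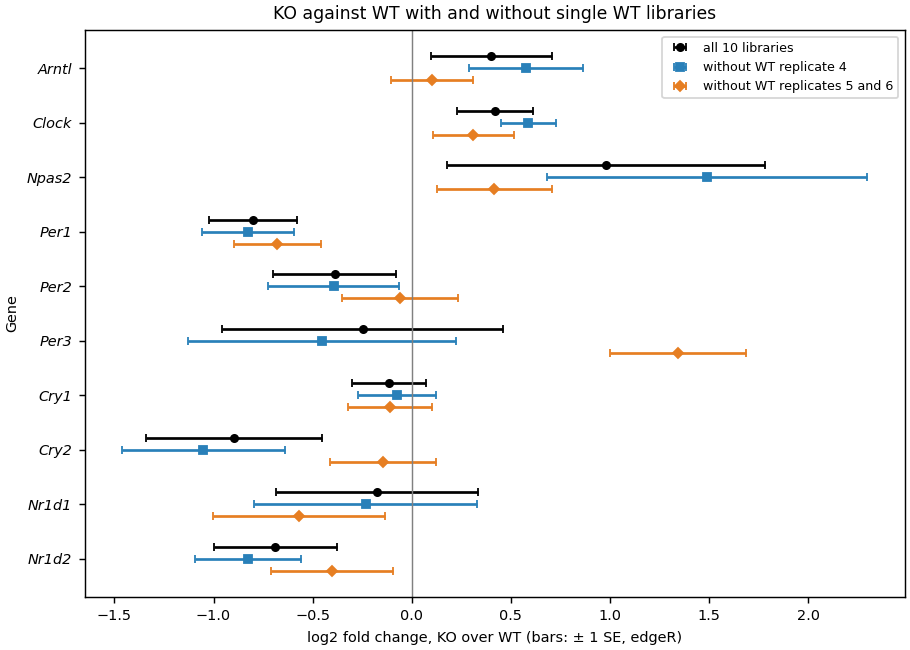
Log2 fold change of KO over WT for each core clock gene (horizontal axis, bars ± 1 SE, edgeR) with all 10 libraries, without WT replicate 4 and without WT replicates 5 and 6. Per3 runs from -0.45 without WT replicate 4 to 1.34 without WT replicates 5 and 6, and Per1 stays between -0.83 and -0.68.

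Within WT, replicates 5 and 6 carried a different balance of the loop from the other libraries. Both lay outside the range of the other 8 libraries for 6 of the 10 members, below it for Arntl, Npas2 and Nr1d1 and above it for Per2, Per3 and Cry2. The same was true of 15.4% of all 13688 genes tested (7.67% below and 7.76% above). No test was made, since these 2 libraries were singled out for their values. Ratios of counts inside a library do not depend on scaling. The ratio of Arntl to Per3 counts was 2.19, 2.23, 3.20 and 5.97 in KO replicates 1 to 4. It was 7.77, 5.04, 4.65 and 13.7 in WT replicates 1 to 4, but 0.878 and 0.244 in WT replicates 5 and 6. The ratio was highest in WT replicate 4, which also had the most Arntl, Clock and Npas2 and the least Per3 of all 10 libraries. The log2 ratio of Npas2 to Clock counts lay between -2.36 and -1.79 in KO, and between -2.55 and -1.95 in WT replicates 1 to 4, against -7.31 and -8.51 in WT replicates 5 and 6. Arntl to Nr1d1 did not follow this pattern: its log2 ratio was lowest in WT replicate 2, at -1.98.

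**Figure D4:**
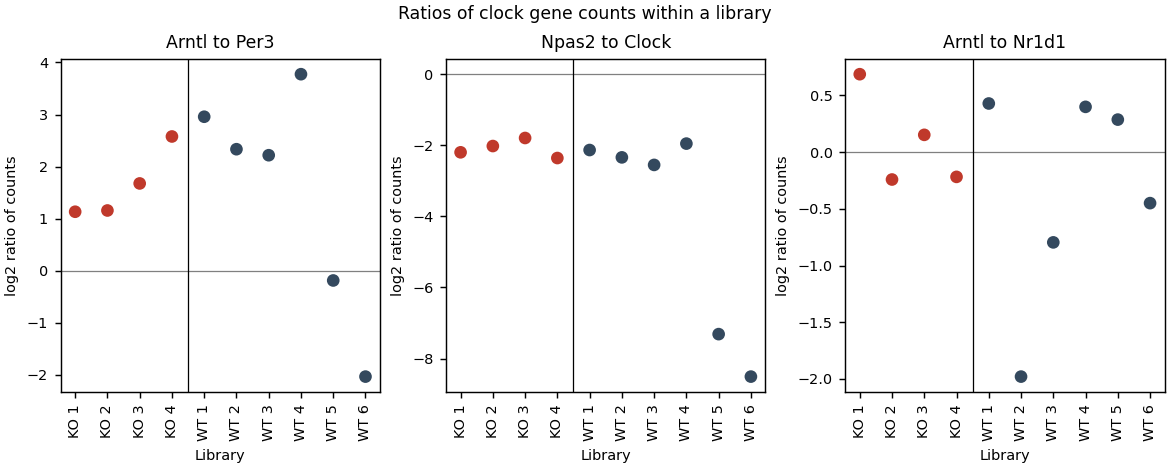
Log2 ratio of counts of Arntl to Per3, Npas2 to Clock and Arntl to Nr1d1 in each library (points), with KO libraries left of WT libraries. WT replicates 5 and 6 are lowest in the plots of Arntl to Per3 and Npas2 to Clock, and WT replicate 2 is lowest in that of Arntl to Nr1d1.

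Per kilobase of exon, the order of the members was led by Per1 and closed by Per3 in both genotypes. In KO the level ran from 8.33 ± 2.06 CPM per kilobase for Per1 through Per2, Cry1, Nr1d1, Nr1d2, Clock, Npas2, Cry2 and Arntl to 0.439 ± 0.147 for Per3 (SD, n = 4). Of the 9 neighbouring pairs in this order, 7 overlapped over libraries. The exceptions were Clock over Npas2 and Arntl over Per3. In WT the order was Per1 (14.5 ± 3.602 CPM per kilobase), Per2, Nr1d2, Cry1, Nr1d1, Cry2, Clock, Arntl, Npas2 and Per3 (0.523 ± 0.626, SD, n = 6), and all 9 neighbouring pairs overlapped. Exonic length was the union over all annotated transcripts, from 3077 bases for Nr1d1 to 13727 for Clock, so a gene with long or rare isoforms is understated.

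Other regulators of the clock that were tested all stayed under the threshold in edgeR with all 10 libraries. Of 23 listed kinases, ubiquitin ligases, nuclear receptors and cofactors, 22 were tested and 0 were called in edgeR at an adjusted p under 0.05 (4 at an unadjusted p under 0.05, and 1, Ciart, in DESeq2), with a median log2 fold change of -0.24. Over all genes these shares were 1.33% called in edgeR, 26.0% at an unadjusted p under 0.05 and 10.3% called in DESeq2. Without WT replicate 4, where 21.4% of all genes were called, 1 of the 22 rose and 3 fell, and without WT replicates 5 and 6, 0 were called. The smallest p was that of Ciart, a repressor of the BMAL1 pair. Ciart had 1.31 to 3.15 CPM in KO, and 6.21, 6.43, 9.63, 1.91, 20.5 and 32.5 CPM in WT replicates 1 to 6 (log2 fold change -2.56, SE 0.70, edgeR adjusted p = 0.0705). Ciart passed in 4 of 22 alternative fits. As with Per3 and Cry2, WT replicates 5 and 6 were the highest.

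The 6 clock output factors gave 0 calls in edgeR (3 at an unadjusted p under 0.05, and 2, Hlf and Bhlhe40, in DESeq2), with a median log2 fold change of -0.61, where all genes gave 26.0% at that unadjusted p and 10.3% in DESeq2. When WT replicate 4 was left out, 1 of the 6 rose and 1 fell, against 21.4% of all genes called, and without WT replicates 5 and 6, 0 were called. Bhlhe40, the DEC1 repressor of E-box genes, had the smallest p, at 40.3 ± 16.2 CPM in KO and a range of 41.7 to 157.7 CPM in WT (log2 fold change -1.45, SE 0.35, edgeR adjusted p = 0.0576). It passed in 4 of 22 alternative fits.

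Of 19 genes known to be under clock control in liver, 1 rose and 2 fell in KO, and the median log2 fold change was -0.78. The background was 0.563% of tested genes called higher and 0.767% called lower. An unadjusted p under 0.05 in edgeR was reached by 14 of the 19, against 26.0% of all genes. KO and WT did not overlap in 4 of the 19, against 6.90% of all genes. DESeq2 called 2 of the 19 higher and 11 lower, where it called 10.3% of all genes. These shares were not tested against the background, and the list was chosen with earlier results of these data known. Cyp7a1, which catalyses the rate-limiting step from cholesterol to bile acids, rose to 34.7 ± 7.15 CPM in KO, against 0.0661 to 2.99 CPM in WT (log2 fold change 5.59, edgeR adjusted p = 0.0221). Without WT replicate 4, the WT library highest in Cyp7a1, the log2 fold change was 7.20. Nampt, the NAD salvage enzyme that feeds back on the clock through SIRT1, fell to 26.8 ± 4.39 CPM in KO, against 27.8 to 113.6 CPM in WT (log2 fold change -1.56, edgeR adjusted p = 0.0466). Por, the reductase of microsomal cytochromes P450, fell to 92.4 ± 21.3 CPM in KO, against 78.5 to 702.2 CPM in WT (log2 fold change -2.29, edgeR adjusted p = 0.0495). In 22 alternative fits Cyp7a1 passed in 13, Nampt in 10 and Por in 7, each with the same direction in all 22. The lowest WT library of both Nampt and Por was replicate 4, so the groups overlapped. The counts depended on the libraries included: 2 rose and 11 fell without WT replicate 4, where 21.4% of all genes were called, and 0 of 19 were called without WT replicates 5 and 6, where 0.0299% of all genes were.

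Hormone and temperature signals that can reach the liver clock were listed as well. Of 11 genes that respond to glucocorticoids, a known input to Per1, 0 rose and 2 fell, where 0.767% of all genes were called lower. Their median log2 fold change was -1.18, with 10 below 0 and 1 above. An unadjusted p under 0.05 in edgeR was reached by 6 of the 11, against 26.0% of all genes. DESeq2 called 0 of the 11 higher and 6 lower, where it called 10.3% of all genes. These shares were not tested against the background, and this list too was chosen with earlier results known. Tat, tyrosine aminotransferase, fell to 1035 ± 322 CPM in KO, against 1366 to 4361 CPM in WT (log2 fold change -1.57, edgeR adjusted p = 0.0460). Mt2, a metallothionein, fell to 435 ± 59.4 CPM in KO, against 576 to 3322 CPM in WT (log2 fold change -1.98, edgeR adjusted p = 0.0440). KO and WT overlapped in Tat, whose lowest WT library was replicate 4, and not in Mt2. Tat passed in 10 and Mt2 in 11 of 22 alternative fits. Without WT replicate 4, where 21.4% of all genes were called, 6 of the 11 fell, and without WT replicates 5 and 6, where 0.0299% were, 0 were called. Of 8 genes that respond to cold or heat, 0 were called and 0 had an unadjusted p under 0.05 in edgeR, and DESeq2 also called 0. Over all genes these shares were 1.33% called in edgeR, 26.0% at an unadjusted p under 0.05 and 10.3% called in DESeq2. In the fit without WT replicate 4, 1 of the 8 rose and 1 fell, against 21.4% of all genes called, and without WT replicates 5 and 6, 0 were called. Cirbp, a cold-inducible RNA-binding protein gene, had the smallest p, at 24.97 ± 3.84 CPM in KO and 13.7 to 47.7 CPM in WT (edgeR adjusted p = 0.210), and passed in 2 of 22 alternative fits.

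The genes most like Arntl and Nr1d1 over the 10 libraries were sought among 9427 tested genes outside the members with a mean of at least 5 CPM, by Pearson's r of log2 CPM, as a description. Those nearest to Arntl were Gsk3a (r = 0.95), Ppp2r1b (0.95), Mospd2 (0.94), Tmem123 (0.94) and Caap1 (0.93). WT replicates 5 and 6 were low in each, and over the other 8 libraries r was 0.72, 0.81, 0.72, 0.64 and 0.72 in the same order. Those nearest to Nr1d1 were Yy1 (0.89), Ftl1 (0.88), Cnot4 (0.88), Rab5c (0.87) and Trmt112-ps2 (0.87). Over the other 8 libraries these r values were 0.80, 0.89, 0.90, 0.81 and 0.88. Of these 10 genes, none passed the test of KO against WT (lowest adjusted p = 0.143, Tmem123, in edgeR). All 10 libraries share the scaling, and r over so few libraries picked from so many genes is high by selection.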

How the data were processed

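Poly(A) RNA of 4 KO and 6 WT mouse livers was sequenced, per the labels' protocols, with a NEBNext Ultra kit. The authors deposited 1 table of unnormalised counts by gene symbol, with 1 column per library and 0 columns unused. STAR, HTSeq, DESeq2 and build mm10 are named in the submitters' processing notes. Versions, roles, annotation and strandedness were not given in the sources used here.

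KO was tested against WT over the whole table with edgeR 4.0.16 (R 4.3.3, quasi-likelihood test, robust dispersion, TMM, filterByExpr), which kept 13688 genes with 99.8% of counts. The Benjamini-Hochberg adjustment ran over all tested genes, and an adjusted p under 0.05 was a call. The SE of a log2 fold change is its size over the square root of F. Log2 CPM used a prior count of 2. Library measures were compared by a two-sided exact permutation test over 210 splits (smallest p 0.00476). The code was tested on simulated data. Libraries of a group differed beyond sampling noise (chi-square per degree of freedom 15.5 to 122). The labels name no animal per library, so p-values measure the spread between libraries.

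Named genes were the 10 members, Ifrd1, each called gene and the gene with the smallest p of each list, and the 5 genes most like Arntl and the 5 most like Nr1d1. Members and lists were chosen with earlier results of these data known. Coordinates and exonic lengths are from GENCODE M21 (GRCm38, the assembly of mm10). Alternatives used DESeq2 1.42.0, limma 3.58.1, sva 3.50.0, other scalings and filters, a replicate block and leaving out each library.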

Additional observations from a re-analysis of the deposited data

Results flagged for a closer look

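In each of 20 sets (10 members in KO and in WT), the highest and lowest library were compared with the others by Dixon's criterion at 95%, which flags about 1 set in 20 by chance. It marked 2. Clock in KO replicate 4, at 47.2 CPM, stood above the other KO libraries at 42.8 to 43.5 CPM, in a group whose whole spread was small. Nr1d1 in WT replicate 2, at 36.1 CPM, stood above the other WT libraries at 5.09 to 16.1 CPM.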

How the results depend on the processing

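The count of called members was 0 with RLE or upper-quartile scaling, either other filter, limma-voom, no robust prior and 1 surrogate variable. It was 1 in DESeq2 (Per1), 3 in limma-voom with sample weights (Clock and Npas2 higher, Per1 lower; 19.2% of all genes called) and 0 to 3 on leaving out each library in turn, with 3 only without WT replicate 4. The 2 settings below were added after seeing the data. Without WT replicates 5 and 6 the count was 0. Without WT replicates 4, 5 and 6 it was 3 (Clock, Npas2 and Per3, all higher in KO, adjusted p = 0.0369, 0.0241 and 0.0325 in edgeR), where 22.1% of all genes were called. Leaving out a library that lies near the other group widens the difference by construction, for the genes in which it lies near. Per3 was not such a gene. Its log2 fold change was 1.34 without WT replicates 5 and 6 and 1.19 without WT replicates 4, 5 and 6. Its unadjusted p in edgeR rose from 0.00271 to 0.00573 between these fits. Its adjusted p fell from 0.119 to 0.0325, as calls over all genes rose from 4 to 3014.

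Over all genes, 182 were called as reported (77 higher, 105 lower), 1624 in DESeq2, 318 in limma-voom (231 higher, 87 lower), 2629 with sample weights (1406 higher, 1223 lower), 0 with 1 surrogate variable, 0 to 2893 on leaving out each library, 4 without WT replicates 5 and 6 and 3014 without WT replicates 4, 5 and 6. The cause was not tested. Where 0 genes were called, 539 (surrogate variable) and 2681 to 2740 (without KO replicates 1, 2 or 3) had an unadjusted p under 0.05 in edgeR.

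Directions turned, on the log2 scale, as follows. With 1 surrogate variable Clock was -0.089, Nr1d1 0.57 and Nr1d2 0.15. In limma-voom Per3 was 0.42 and Nr1d1 0.040, and with sample weights Per3 was 0.28 and Nr1d1 0.049. Per3 was 1.34 without WT replicates 5 and 6, 1.19 without WT replicates 4, 5 and 6, and -0.45 to 0.63 on leaving out each library (0.63 without WT replicate 6). Per2 was 0.055 without WT replicates 4, 5 and 6. Cry1 ran from -0.19 to 0.020 (without KO replicate 4) and Nr1d1 from -0.35 to 0.37 (without WT replicate 2), with 0.050 without KO replicate 1. Arntl and Npas2 stayed above 0 and Per1 and Cry2 below 0 in all 22 alternatives.

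With the replicate block (libraries 1 to 4 of each group) 0 members and 0 genes in all were called (2 members and 2860 genes at an unadjusted p under 0.05), against 4 genes in those libraries without it, and Per3 was 1.31. Deviations of same-numbered libraries correlated at 0.18, 0.07, -0.03 and -0.02, and 4 of 8 libraries correlated best with their own number, so the numbers were not taken to pair the animals. Low counts limit Per3 and Npas2 most.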
